A study of Caenorhabditis elegans with 2 samples.

Results

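These data map the binding of UNC-55 in Caenorhabditis elegans embryos, and the regions described here are the weaker ones that both replicates list. They were chosen by measured values: a region of the pooled list was taken when it shared no base pair with the authors' set of irreproducible discovery rate (IDR) peaks, which ranks how well peaks repeat, and at least 1 base pair with a region in the list of each replicate. The rule found 1153 regions among the 30000 of the pooled list and among the 27057 of them outside the IDR set. They are called shared weak regions below. Of the other 25904 regions outside the set, 22147 were overlapped by replicate 2 alone, 439 by replicate 1 alone and 3318 by neither.

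All samples belonged to 1 group of 2 biological replicates, so no genotypes, stages or treatments were compared. Per the labels, both are ChIP-seq libraries from whole late embryos of strain NC1639, mixed in sex, with integrated construct wdIs49 on chromosome III. In it the ttr-39 promoter drives UNC-55a::GFP, and dpy-20+ is carried along. The antibody is named only as unc-55, and the tag is GFP in the genotype but GFP-FLAG in a note. The cells that gave the signal were not separated, and the control libraries were not analysed here. The lists hold no read counts, so how deeply each library was sequenced is unknown.

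UNC-55 belongs to the COUP-TF family of nuclear receptors. In C. elegans it acts in the VD motor neurons, where it keeps these GABA-releasing cells from moving their synapses as their sister DD neurons do. COUP-TF receptors bind repeats of the motif AGGTCA, and the homeodomain protein UNC-30, which sets the identity of the same neurons, binds the core TAATCC. GA repeats are common in C. elegans promoters.

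The sequences around the summits, where the signal was highest, show the range of these regions. They were read from the WBcel235 (ce11) genome on the plus strand, and each runs from 50 bases before to 50 bases after the pooled summit. The first 4 are shown because they hold the 6-mer GAGAGA, the most common of the 4 motifs counted below. Capitals mark GAGAGA or its reverse complement TCTCTC and, in 1 case, CTGCGT, the reverse complement of the 6-mer ACGCAG.
sms-1, chrIV:11489670-11489770: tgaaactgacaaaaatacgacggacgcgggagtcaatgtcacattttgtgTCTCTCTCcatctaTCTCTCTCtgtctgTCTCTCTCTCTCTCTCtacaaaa
sms-1, chrIV:11489937-11490037: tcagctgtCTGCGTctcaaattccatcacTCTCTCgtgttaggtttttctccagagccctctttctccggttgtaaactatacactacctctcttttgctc
elt-6, chrIV:1917854-1917954: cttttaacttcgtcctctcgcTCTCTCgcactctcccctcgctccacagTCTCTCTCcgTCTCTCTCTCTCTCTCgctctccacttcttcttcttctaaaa
dve-1, chrX:433954-434054: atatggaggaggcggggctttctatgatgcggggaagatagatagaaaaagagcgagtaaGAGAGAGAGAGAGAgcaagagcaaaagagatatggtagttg

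The next 4 are shown because they ranked high in both replicates, or lay at a gene of D neuron remodelling, and held none of the 4 motifs. No capitals are marked in them.
unc-97, chrX:5592059-5592159: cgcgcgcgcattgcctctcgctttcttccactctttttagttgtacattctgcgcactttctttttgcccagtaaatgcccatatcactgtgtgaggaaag
ftt-2, chrX:11605919-11606019: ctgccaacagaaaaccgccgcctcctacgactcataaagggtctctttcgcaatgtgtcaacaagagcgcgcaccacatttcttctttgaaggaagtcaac
abl-1, chrX:10624330-10624430: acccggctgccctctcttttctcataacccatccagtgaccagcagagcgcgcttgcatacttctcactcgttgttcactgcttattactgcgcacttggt
lin-14, chrX:11465385-11465485: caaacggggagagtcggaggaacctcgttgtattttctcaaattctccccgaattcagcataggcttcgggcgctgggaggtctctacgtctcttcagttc

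The last pair hold the COUP-TF motif within 50 bp of the summit and are 2 of the strongest such regions, a choice made after the values were seen. Capitals mark AGGTCA, its reverse complement TGACCT and TCTCTC.
F54D5.24, chrII:11555798-11555898: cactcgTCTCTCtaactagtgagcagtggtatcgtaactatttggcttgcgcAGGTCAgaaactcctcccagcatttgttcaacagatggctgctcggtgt
grdn-1, chrV:18594766-18594866: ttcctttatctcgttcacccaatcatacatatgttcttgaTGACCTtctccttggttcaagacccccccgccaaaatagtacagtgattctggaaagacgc

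The signal value is the authors' own number for each region, set by their peak caller against the control, and it is not scaled between lists. In the pooled list, the shared weak regions had signal values of 3.85 to 23.8, and their ranks ran from 2522 to 29972 with a median of 8537. Of the 2511 peaks of the IDR set, only 770 were overlapped by both replicate lists. The median signal value was 40.9 for these 770 IDR peaks and 6.23 for the other pooled regions outside the set. The edge of the IDR set lies inside a continuous series of values. The strongest shared weak region, of pooled rank 2522, had a signal value of 23.75, and the strongest pooled region outside the set, of pooled rank 2512, had 23.80. The weakest IDR peak, the last of the 2511 in its own list, had 23.81. The deposited −log10 q-value does not part them either, since 327 of the shared weak regions carry 4.02, the single value of the whole IDR set. The rule used the positions of listed regions, and the IDR set lies at the strong end of these values. They therefore describe the regions and test nothing.

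The share of pooled regions outside the IDR set that were shared weak regions was 12.5% at ranks up to 5000 (303 of 2421; 95% Wilson interval 11.3 to 13.9), 7.61% at ranks 5001 to 10000 (370 regions), 4.25% at 10001 to 15000 (209), 2.42% at 15001 to 20000 (120), 1.56% at 20001 to 25000 (77) and 1.49% at 25001 to 30000 (74; 1.19 to 1.87). Replicate 1's regions cover 1.01% of the nuclear genome, replicate 2's cover 10.4% and the shared weak regions 0.394%. Coverage counts base pairs, while the shares count whole regions that share at least 1 base pair with each list. The coverage is therefore not the share that overlap by chance would give, which was not computed. Because the share depends on rank, location and sequence were compared with the other pooled regions within 6 bins of rank. Against the IDR peaks, whose ranks differ, location was compared within chromosomes and sequence within bins of GC content.

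The lists of the replicates differ in length, and they may have been ended by different rules: replicate 1's holds 3577 regions with 1 q-value throughout and replicate 2's exactly 30000, and no rule is stated in the sources used here. Ranks, and the count overlapped by 1 replicate alone, depend on where each list ends. In replicate 1's list the best overlapping region had ranks from 19 to 3577 with a median of 1877. In replicate 2's list of 30000, the ranks ran from 1610 to 29821 with a median of 9295. The signal value in replicate 1 had a median of 2.65 and a range of 2.00 to 11.0. The IDR peaks overlapped by both lists had a median of 3.53 and a range of 2.00 to 19.1, so the groups overlapped over most of their range in replicate 1. In replicate 2 the median was 8.71 for the shared weak regions and 37.5 for these IDR peaks.

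The signal values of the replicates hardly ranked the shared weak regions alike. Spearman's rho between the signal values of the replicates was 0.0185 over the 1153 shared weak regions and 0.239 over the 770 IDR peaks. These are descriptions across regions of the same 2 libraries: neighbouring regions can share 1 replicate region, and both groups were cut by their pooled signal.

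**Figure D1:**
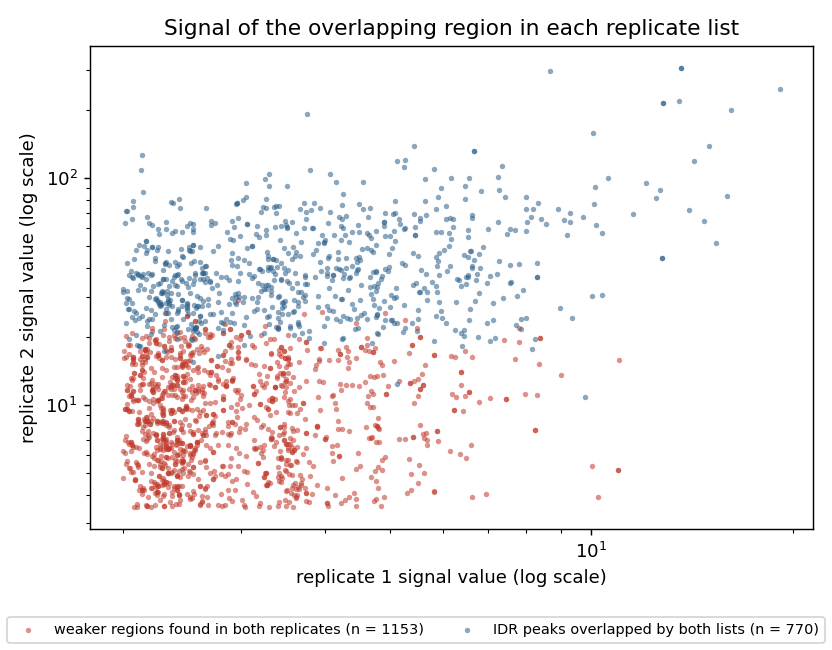
Signal value of the best overlapping region in replicate 1 (horizontal, log scale) and replicate 2 (vertical, log scale), in the authors' units; 1 point is 1 of the 1153 shared weak regions (red) or 1 of the 770 IDR peaks overlapped by both lists (blue). The groups part along the replicate 2 axis, with medians of 8.71 and 37.5, and overlap along the replicate 1 axis, with medians of 2.65 and 3.53.

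A shared base pair is a loose form of agreement, and the summits lay further apart than in the stronger peaks. The summit of the replicate 1 region was a median of 101 bp from the pooled summit for shared weak regions and 55.5 bp for IDR peaks overlapped by both lists. It lay within 100 bp in 49.6% (572) of the shared weak regions and 69.0% (531) of the IDR peaks, and over 200 bp away in 22.1% and 8.57%. Replicate 2's summits were nearer, with medians of 9 bp and 0 bp. Fewer than 50 bp were shared with replicate 1 in 8.59% of shared weak regions and 2.21% of IDR peaks. The rule used these overlaps, so no test was made.

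The regions are also not independent of one another. Only 989 replicate 1 regions stand behind the 1153, since 321 of the shared weak regions share theirs with another one, and 345 have another pooled summit outside the IDR set within 300 bp. Replicate 1 regions that also overlap an IDR peak lie behind 2 of them. The gene lmd-3, which encodes a LysM-domain protein and was named after its count was seen, had the most shared weak summits within 5000 bp of its 29159 bp, with 5. All 5 rest on a pair of replicate 1 regions, ranked 2503 and 2458.

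**Figure D2:**
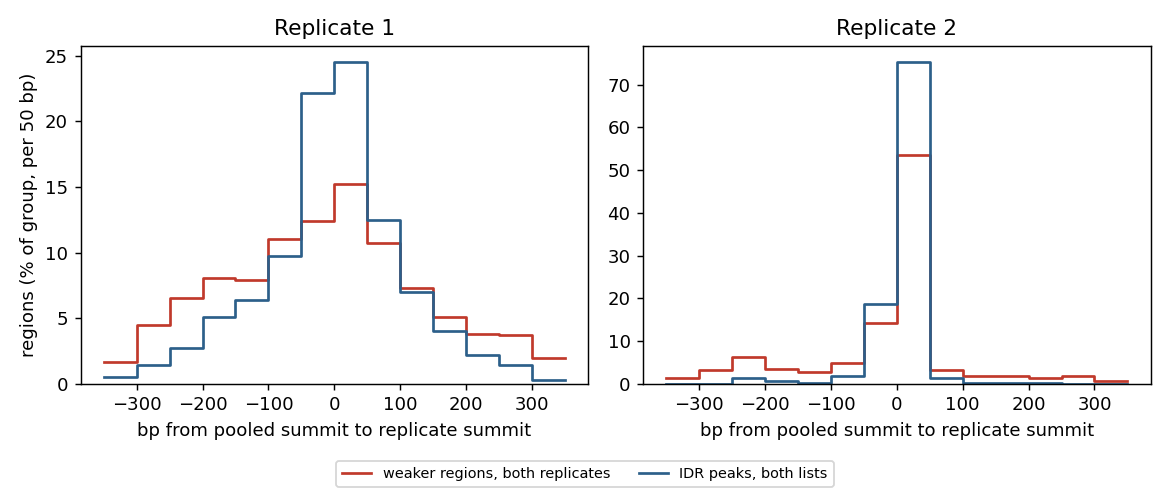
Distance in bp from the pooled summit to the summit of the overlapping region in replicate 1 (left) and replicate 2 (right), as the percent of each group in steps of 50 bp; red is the shared weak regions and blue the IDR peaks overlapped by both lists. In replicate 1, the step from 0 to 50 bp holds 15.3% of the shared weak regions and 24.5% of the IDR peaks, and in replicate 2 it holds 53.6% and 75.3%.

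The regions best placed in both replicates lay at or nearest genes of varied function. The 15 with the smallest sum of percentile ranks, chosen on measured values and given as a description, included pairs of neighbouring summits at ftt-2, sms-1 and sel-8. Replicate ranks are those of the strongest overlapping region, whose summit can lie elsewhere. Relative to the pooled summit, replicate 1's lay from -300 bp, in the sms-1 pair, to 305 bp, in the sel-8 pair. It lay at -229 bp at abl-1, -273 bp at cutl-1 and -286 bp at rpc-1, but at -19 bp at toca-1, 18 bp at ZK930.6 and 42 bp at unc-97. Near unc-97, which encodes a LIM-domain protein of muscle attachment sites, the region chrX:5591929-5592288 had a signal value of 11.0 in replicate 1 (rank 19), 15.8 in replicate 2 (rank 4283) and 14.2 in the pool (rank 5393). Its summit was intergenic, at -1024 bp relative to the transcript start of unc-97, and the region lay 182 bp from an IDR peak. No other shared weak region had a better rank in replicate 1.

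At ftt-2, which encodes a 14-3-3 protein, the region chrX:11605789-11606148 had a signal value of 7.81 in replicate 1 (rank 75), 19.00 in replicate 2 (rank 3330) and 23.1 in the pool (rank 2654), with its summit in the promoter window at -550 bp. The neighbouring region chrX:11606197-11606556, at -958 bp, overlapped the same replicate 1 region but another region of replicate 2, with a signal value of 21.9 (rank 2629). This pair lay far from the IDR set, 28734 and 29142 bp from the nearest peak. At sms-1, which encodes a sphingomyelin synthase, the 2 regions whose sequences are given above lay in an intron, at -1722 and -1989 bp from the nearest start. Both overlapped 1 region in replicate 1, with a signal value of 8.39 (rank 53), and 1 in replicate 2, with 19.7 (rank 3136), and their pooled signal values were 17.5 and 18.4.

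The pair nearest sel-8, a co-activator of Notch signalling, was intronic, with summits at -4128 and 4182 bp from the nearest sel-8 starts. The intron class does not say which gene the intron belongs to. The pair again rested on 1 region in each replicate, which had a signal value of 5.55 (rank 266) in the first replicate and 19.9 (rank 3089) in the second. At abl-1, which encodes the Abl tyrosine kinase, the signal values were 5.27 (rank 319) in replicate 1 and 23.8 (rank 2290) in replicate 2, with a promoter summit at -173 bp. At toca-1, which encodes an F-BAR protein of endocytosis, they were 6.63 (rank 140) and 16.2 (rank 4141), with a promoter summit at -857 bp. The summit near frm-10, a FERM-domain gene, lay at -71 bp, and 1 summit stood in the windows of both rpc-1 and C42D4.18. The others of the 15 named here lay nearest C30E1.4, at 7032 bp from its start, ZK930.6, at 4051 bp, and cutl-1, at 2135 bp. At cutl-1, a cuticlin-like gene, the summit was exonic. Apart from unc-97 at pooled rank 5393 and 1 of the sel-8 pair at 12630, the 15 had pooled ranks from 2632 to 4742.

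The 5 shared weak regions of highest pooled signal lay nearest dnj-24, C52B9.4, C15A11.7, Y54G2A.73 and gck-1, with pooled signal values from 23.7 to 23.8. In replicate 1 their ranks were 2208 at dnj-24, 346 at C52B9.4, 3065 at C15A11.7, 2818 at Y54G2A.73 and 1806 at gck-1, which encodes a germinal centre kinase. In replicate 2 their ranks were between 2353 and 4337. For comparison, the 5 strongest pooled regions outside the IDR set that replicate 1 lacks lay at K04G11.1, at arx-6 and tost-1, at xnd-1 and madf-11, at W05F2.4 and at rsa-2. Their pooled signal values were all 23.8 to 3 digits, and their ranks in replicate 2 ran from 1972 at K04G11.1 to 2758 at arx-6. Of the 5 that replicate 1 lists, only Y54G2A.73, at 2353, fell within this range. The others were weaker in replicate 2, with ranks from 2948 at gck-1 to 4337 at C52B9.4.

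Position in the annotation was not used by the rule. Promoter windows reached 1000 bp upstream and 200 bp downstream of the transcript starts of protein-coding genes. They held the summits of 41.2% of the shared weak regions (475; 95% Wilson interval 38.4 to 44.1). The share was 47.7% (44.2 to 51.2) for the IDR peaks overlapped by both lists and 33.9% (33.3 to 34.5) for the other pooled regions outside the set. Exons outside these windows held 8.33% (96; 6.87 to 10.1) of the shared weak summits, against 1.56% (12; 0.894 to 2.70) of the IDR summits and 14.7% (14.3 to 15.1) of the other pooled summits. Introns held 23.3%, 19.6% and 25.4% in the same order of groups, the 1000 bp 3′ of genes 3.82%, 4.42% and 5.41%, and other intergenic sequence 23.3%, 26.8% and 20.6%.

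Against the IDR peaks, exonic summits were more frequent among the shared weak regions, with an odds ratio of 5.63 (95% interval 3.07 to 10.3; n = 1153 and n = 770; Mantel-Haenszel test within chromosomes, two-sided, adjusted p = 2.44e-09 over 5 classes). Promoter summits were less frequent, with an odds ratio of 0.766 (0.637 to 0.921; n = 1153 and n = 770; adjusted p = 0.0112 in the same test). The odds ratios were 1.26 (1.01 to 1.58) for introns, 0.842 (0.533 to 1.33) for the 3′ flank and 0.836 (0.678 to 1.03) for other intergenic sequence, and these missed the threshold with adjusted p of 0.0682, 0.459 and 0.118. Introns passed under 5 alternatives, at odds ratios of 1.34 to 1.55, which include 50% overlap and leaving out either replicate. Other intergenic sequence passed under 4, at 0.758 to 0.801, again with either replicate left out. The call for promoters was lost under 3: with regions of pooled rank up to 10000 (0.842, adjusted p of 0.196), with a promoter window from 2000 bp upstream to 500 bp downstream (0.849, adjusted p of 0.144) and with windows under 50% masked (0.798, adjusted p of 0.0526). With overlap asked of 1 replicate alone, the exon odds ratio was 11.3 without replicate 1 and 8.66 without replicate 2. Regions are not replicates, so the p-values describe these lists and not the spread between embryo cultures, and intervals cover counting error only.

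Against the other pooled regions of like rank, no class passed the threshold. The odds ratio was 1.10 (0.976 to 1.25; n = 1153 and n = 25904; Mantel-Haenszel test within rank bins, adjusted p = 0.192) for promoters, 0.759 (0.612 to 0.942; adjusted p = 0.0517) for exons and 0.694 (0.509 to 0.946; adjusted p = 0.0517) for the 3′ flank. In the same test it was 1.02 (0.884 to 1.17; adjusted p of 0.797) for introns and 1.08 (0.933 to 1.24; adjusted p of 0.394) for other intergenic sequence. The shares varied with rank in both groups. The promoter share was 44.2% for shared weak regions and 48.7% for the others at ranks up to 5000, 29.9% (20.8 to 40.8) and 29.4% (28.1 to 30.7) at ranks 20001 to 25000, and 39.2% (28.9 to 50.6; 29 of 74) and 28.4% (27.1 to 29.7) at ranks 25001 to 30000. The exon share was 3.63% and 2.69% in the first of these bins, 11.7% and 18.1% in the next to last and 12.2% and 19.1% in the last. Taking overlap with replicate 2 alone in place of both replicates, which gives 23300 regions, the odds ratios were 1.13 for promoters and 0.777 for exons, with adjusted p of 0.00851 and 3.81e-07. Without replicate 2 the 3′ flank was called, at 0.656 and an adjusted p of 0.0103.

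**Figure D3:**
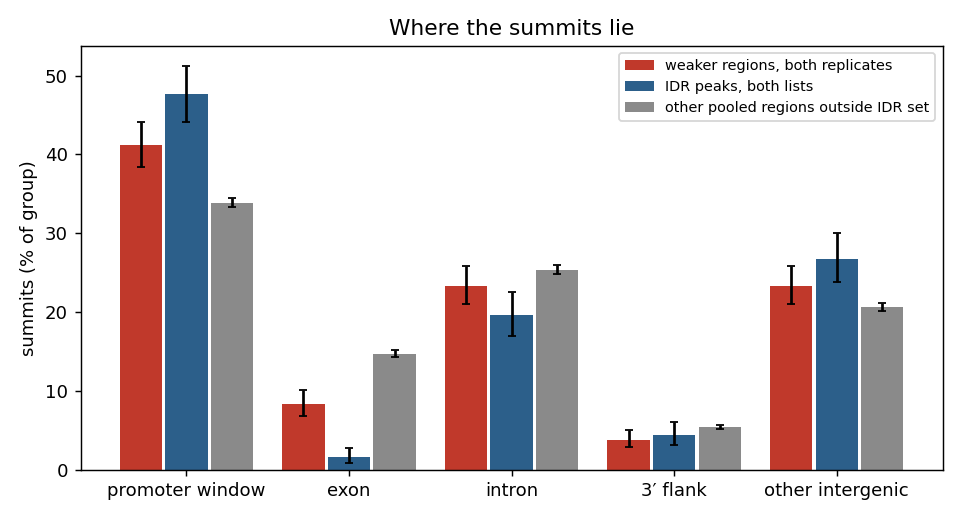
Percent of summits in each location class for shared weak regions (red, 1153), IDR peaks overlapped by both lists (blue, 770) and other pooled regions outside the IDR set (grey, 25904), with 95% Wilson intervals. Exons hold 8.33%, 1.56% and 14.7% of the summits, but the groups are not matched for rank here. For shared weak and other pooled regions, the exon shares were 3.63% and 2.69% at ranks up to 5000, and 12.2% and 19.1% at ranks 25001 to 30000.

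Other annotated features were examined after the data were seen, as 7 features adjusted together. Summit windows of 100 bp to each side that were at least 50% soft-masked repeat made up 12.3% (142; 10.5 to 14.3) of the shared weak regions, 4.16% (2.96 to 5.81) of the IDR peaks overlapped by both lists and 20.8% (20.4 to 21.3) of the other pooled regions. Against the other pooled regions in rank bins, the odds ratio was 0.731 (0.609 to 0.876; n = 1153 and n = 25904; Mantel-Haenszel test, adjusted p = 0.00465). The call was lost, with odds ratios of 0.808, 0.768 and 0.814, when overlap had to reach 50% of each region, when summits had to lie within 100 bp, and at ranks up to 10000, which leave 655, 478 and 673 shared weak regions. It was also lost without replicate 1, at 0.955. A tRNA gene lay within 200 bp of 4 shared weak summits (0.347%) and 207 of the others (0.799%), and a pseudogene within 200 bp of 4 (0.347%) and 361 (1.39%). Their odds ratios, 0.305 (0.112 to 0.832) and 0.350 (0.130 to 0.939), missed the threshold in the Mantel-Haenszel test, with adjusted p of 0.0513 and 0.0672. With regions at least 1000 bp from every IDR peak both passed, at 0.235 (adjusted p of 0.0261) and 0.274 (0.0395). Without replicate 2 the tRNA value passed at 0.315 (0.0276), and without replicate 1 it turned to 1.52.

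The X chromosome held 21.2% (245; 18.99 to 23.7) of the shared weak regions, 22.1% of the IDR peaks overlapped by both lists and 20.5% of the other pooled regions, and its odds ratio against the other pooled regions was 1.00 (0.866 to 1.16). The autosomes held between 15.2% and 16.3% each. The shared weak regions lay a median of 8800 bp from the nearest IDR peak, and the other pooled regions 11781.5 bp. Within 1000 bp of an IDR peak lay 10.3% (119; 8.69 to 12.2) and 8.18% (7.85 to 8.52) of these groups. Neither distance was tested.

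GC content in the summit windows averaged 39.01% ± 7.29 (SD, n = 1153 regions) in the shared weak regions, 45.3% ± 6.26 (n = 770) in the IDR peaks overlapped by both lists and 36.4% ± 7.17 (n = 25904) in the other pooled regions. Windows of the same width 1000 bp away from the shared weak summits averaged 36.0% ± 7.03. Sequence was therefore compared within bins of GC content, except against these flanks, where each summit window was paired with its own flank and base composition was not matched.

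Of the 4 motifs counted, the GA repeat was the one that the shared weak regions carried most often, and they carried it less often than the IDR peaks. GAGAGA, on either strand of the 201 bp window, was in 27.7% (319; 25.2 to 30.3) of the shared weak regions, 53.8% (50.2 to 57.3) of the IDR peaks overlapped by both lists and 18.2% (17.7 to 18.7) of the other pooled regions. Runs of it can be seen at sms-1, elt-6 and dve-1 above. The odds ratio against the IDR peaks was 0.499 (0.405 to 0.615; n = 1153 and n = 770; Mantel-Haenszel test within 5 GC bins, two-sided, adjusted p = 1.28e-10 over the 4 motifs). The 6-mer ACGCAG was in 9.02% (104; 7.50 to 10.8), 30.0% (26.9 to 33.3) and 6.35% (6.06 to 6.65) of these groups, with an odds ratio against the IDR peaks of 0.353 (0.270 to 0.462; n = 1153 and n = 770; same test, adjusted p = 2.92e-14). Both 6-mers were taken up because earlier results of these data had shown them in IDR peaks, so a high share in IDR peaks was known when they were picked.

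The COUP-TF motif was uncommon in every group. AGGTCA was in 6.76% (78; 5.45 to 8.36) of the shared weak regions, 5.45% (4.06 to 7.29) of the IDR peaks overlapped by both lists and 5.62% (5.35 to 5.91) of the other pooled regions. TAATCC, the UNC-30 core, was in 5.90% (68; 4.68 to 7.41), 4.42% (3.18 to 6.11) and 6.74% (6.44 to 7.05). Against the IDR peaks, their odds ratios of 1.35 (0.902 to 2.03) and 1.33 (0.852 to 2.07) missed the threshold in the Mantel-Haenszel test, with adjusted p of 0.185 and 0.201. Without replicate 1, which lets in 23300 regions, TAATCC passed at 1.72 (1.39 to 2.13; adjusted p of 4.48e-07). A match of these letters is a description and does not show a site, and AGGTCA alone covers only part of the spacings and variants that nuclear receptors are known to use.

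Against other pooled regions of like rank and GC content, none of the 4 motifs differed beyond the threshold. The odds ratio was 1.10 (0.954 to 1.26) for GAGAGA, 0.931 (0.750 to 1.15) for ACGCAG, 1.04 (0.817 to 1.32) for AGGTCA and 0.886 (0.688 to 1.14) for TAATCC, with adjusted p of 0.688, 0.688, 0.758 and 0.688 in the Mantel-Haenszel test. The share with GAGAGA moved with rank in both groups. At ranks up to 5000 it was 39.6% (34.3 to 45.2) in shared weak regions and 39.8% (37.7 to 41.9) in the others. At ranks 10001 to 15000 it was 17.2% (12.7 to 22.9) and 17.4% (16.3 to 18.5), and at 20001 to 25000 18.2% (11.2 to 28.2) and 12.9% (12.0 to 13.9). At ranks 25001 to 30000 it was 27.0% (18.2 to 38.1; 20 of 74) and 11.4% (10.5 to 12.3). Whether the difference between the groups itself depends on rank was not tested. Taking replicate 2 alone in place of both, the odds ratio for GAGAGA was 1.27 with an adjusted p of 0.000166.

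**Figure D4:**
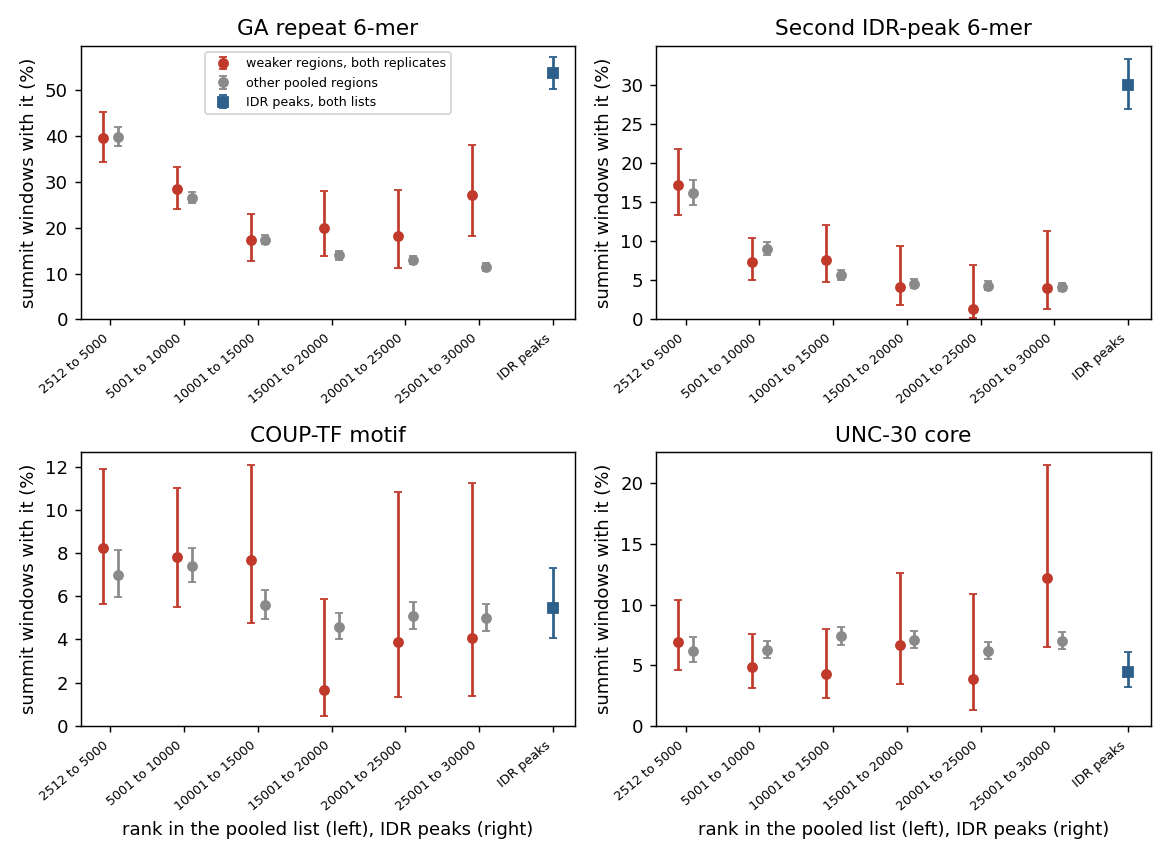
Percent of 201 bp summit windows with each motif on either strand, by rank bin of the pooled list, for shared weak regions (red) and other pooled regions (grey), with IDR peaks overlapped by both lists at the right (blue); bars are 95% Wilson intervals. The GA repeat 6-mer is GAGAGA, present in 39.6% and 39.8% of the first bin, and the second IDR-peak 6-mer is ACGCAG; the COUP-TF motif is AGGTCA and the UNC-30 core TAATCC.

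Compared with their own flanks, the shared weak summits were richer in GA repeats. GAGAGA was in 27.7% of the summit windows and 12.1% of the flanks. It was in the summit window alone for 268 regions and in the flank alone for 89, a ratio of 3.01 (exact McNemar test, two-sided, adjusted p = 1.20e-18 over all 6-mer pairs). ACGCAG was in 9.02% and 4.60%, with a ratio of 2.02 (adjusted p = 0.00123, exact McNemar test). AGGTCA was in 6.76% and 5.98%, a ratio of 1.13, and TAATCC in 5.90% and 7.03%, a ratio of 0.827, and neither passed in the exact McNemar test (adjusted p of 0.785 and 0.613). Still, 783 of the 1153 windows held neither GAGAGA nor ACGCAG, 53 held both, and 689 held none of the 4 motifs, as at unc-97, ftt-2, abl-1 and lin-14.

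Over all 6-mer pairs, each a 6-mer with its reverse complement, the shared weak regions differed from the IDR peaks and from their flanks but not detectably from other pooled regions. Against the other pooled regions, 0% of the pairs were higher and 0% lower at an adjusted p under 0.05 (0 and 0 pairs; Mantel-Haenszel test in rank and GC bins), while 121 had an unadjusted p under 0.05 and the smallest adjusted p was 0.117. With bins of rank alone, 4 pairs were higher. Against the IDR peaks overlapped by both lists, 1.49% of the pairs were higher (31) and 2.88% were lower (60), a comparison added after the data were seen. Those lower were led by ACGCAG, and GAGAGA was among the 6 with the smallest p. CGTCTC, the next after ACGCAG, was in 12.9% of the shared weak windows and 36.8% of the IDR windows, with an odds ratio of 0.404 (0.317 to 0.514), and AGAGAC in 17.7% and 40.1%, with 0.453 (0.361 to 0.568). GAGACG, the reverse complement of CGTCTC, can overlap both ACGCAG and AGAGAC in sequence, so these are not separate results. Those higher were led by AAAAAA, in 54.3% and 27.7%, with an odds ratio of 1.78 (1.43 to 2.21). With 50% overlap 9 pairs were higher and 23 lower, with summits within 100 bp 4 and 19, and at ranks up to 10000 9 and 24. Without replicate 1, when far more regions enter, 543 were higher and 319 lower, and without replicate 2 these were 62 and 82.

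Against the flanks, 7.4% of the pairs were higher at the summits (154) and 3.51% lower (73). The higher ones were led by GAGAGA and by 6-mers that overlap it in sequence and so are not separate results. CCTCCC, a C-rich 6-mer, was in 10.6% of the summit windows and 4.34% of the flanks (ratio 2.64). The lower ones were led by AAAATT, in 49.2% of the summit windows and 62.2% of the flanks (ratio 0.580). Of the 154 higher than in flanks, 33 were also lower than in the IDR peaks. Without replicate 1, 615 pairs were higher and 421 lower than in flanks, and without replicate 2 these were 106 and 48. Since summits were richer in G and C than flanks, the part of base composition in these counts was not tested.

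**Figure D5:**
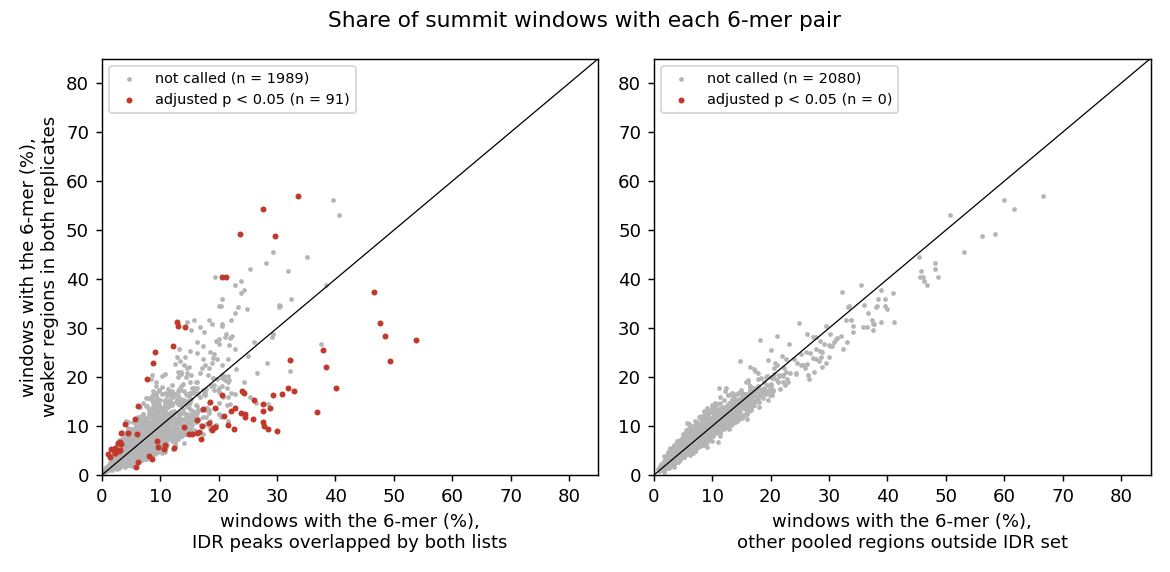
Percent of 201 bp summit windows that hold each 6-mer pair, in the shared weak regions (vertical) and in the IDR peaks overlapped by both lists (left panel, horizontal) or the other pooled regions outside the set (right panel, horizontal); the line marks equal shares and red points passed an adjusted p under 0.05 in the Mantel-Haenszel test. Red points number 91 in the left panel and 0 in the right.

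Among themselves, the shared weak regions with the closest replicate 1 summits held ACGCAG in 11.9% (9.49 to 14.8) of windows (summit within 100 bp, 572 regions), against 6.44% (4.25 to 9.65) at over 100 and up to 200 bp (326) and 5.88% (3.60 to 9.48) beyond 200 bp (255). GAGAGA was in 29.5%, 27.3% and 23.9% of the same subsets, AGGTCA in 8.39%, 6.13% and 3.92%, and promoter windows held 39.7%, 40.8% and 45.1% of their summits. By replicate 1 signal value, ACGCAG was in 13.2% (9.77 to 17.6) of the highest of 4 equal parts, with signal values from 3.50 to 11.0, in 7.29% and 6.25% of the next parts down and in 9.34% (6.50 to 13.3) of the lowest, with values from 2.00 to 2.32. GAGAGA was in 29.9%, 25.0%, 29.5% and 26.3% of these parts. The subsets were cut on values tied to the overlaps that the rule used and are given without a test.

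The 475 promoter summits fell in the windows of 478 protein-coding genes, or 2.39% of 19973 (2.19 to 2.61). Of these summits, 80 stood in the windows of 2 genes and 3 in those of 3, while some windows, such as that of ftt-2, held more than 1 summit. Summits of the IDR peaks overlapped by both lists stood at 430 of the 19973 genes, the background for each list's count of IDR peaks below. Without replicate 1 the genes would number 6957 of the 19973, and without replicate 2 607. The 6957 is the background for each list's count without replicate 1. Each list's count below rests on replicate 1's short list: without replicate 1 all 20 lists but the construct genes counted more. Of the 478 genes, 20 also had a summit of any IDR peak in the window. The lists below were chosen with earlier results of these data known, and their counts are set beside the 2.39% of all genes as a description.

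Of 15 genes tied to the remodelling of D neurons, 2 had a shared weak summit in the promoter window, 13.3% (3.74 to 37.9): dve-1 and lin-14. The count was 12 without replicate 1, and 1 with 50% overlap, with summits within 100 bp or at ranks up to 10000. Over all 19973 genes, the counts under these settings were 6957, 299, 224 and 338 in turn. Neither dve-1 nor lin-14 had a summit of an IDR peak overlapped by both lists. At dve-1, which encodes a homeodomain protein that takes part in eliminating synapses of DD neurons, the region chrX:433824-434183 had a signal value of 2.49 in replicate 1 (rank 2244), 6.58 in replicate 2 (rank 13836) and 4.96 in the pool (rank 22659), and its summit at -192 bp held the GA run printed above. This is a weak region by each list, and its replicate 1 summit lay 238 bp from the pooled one. A second region, chrX:431040-431399, had its summit in an intron, 765 bp downstream of the nearest dve-1 start. It had 2.09 in replicate 1 (rank 3434), 15.1 in replicate 2 (rank 4531) and 18.4 in the pool (rank 3764). The replicate summits there lay at -1 and 0 bp from the pooled one, and the window held TAATCC but not GAGAGA.

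At lin-14, a heterochronic gene that times DD remodelling, the promoter region chrX:11465255-11465614 had a signal value of 2.82 in replicate 1 (rank 1693), 12.4 in replicate 2 (rank 5913) and 18.03 in the pool (rank 3885). Its summit was at -125 bp, and the region lay 1358 bp from an IDR peak. A second, intronic region, at -4490 bp from the nearest lin-14 start, had 2.13 (rank 3343), 5.07 (rank 19815) and 6.998 (rank 14204) in the same lists. A region at -2505 bp from myrf-1, a membrane-bound transcription factor gene of the list, had 2.25 (rank 3011), 10.5 (rank 7301) and 5.01 (rank 22353). The rest of the list, unc-30, oig-1, irx-1, hbl-1 and unc-8 among them, had no shared weak summit within 5000 bp.

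None of 8 genes of GABA neuron identity had a shared weak promoter summit (0%, upper Wilson limit 32.4). A single summit within 5000 bp, at lim-6, a LIM-homeodomain gene, lay nearer to pfn-3, a profilin gene, at -1526 bp from its start. It had a signal value of 2.41 in replicate 1 (rank 2501), 13.3 in replicate 2 (rank 5358) and 14.3 in the pool (rank 5324). The replicate summits lay 230 bp (replicate 1) and 0 bp (replicate 2) from the pooled one. The construct genes unc-55, ttr-39 and dpy-20 had none (0 of 3, upper limit 56.1), and neither did 10 genes of cholinergic identity (upper limit 27.8). Without replicate 1 the GABA list counted 3, the construct genes 0 and the cholinergic list 3. Of 23 pan-neuronal genes 1 had one (4.35%), unc-2, which encodes a presynaptic calcium channel, with a pooled signal value of 9.25. Of 26 axon guidance genes found in the annotation 1 had one (3.85%), mab-20, a semaphorin gene, with 23.1. IDR peaks overlapped by both lists stood at 4 of the pan-neuronal and 5 of the axon guidance genes.

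Outside the nervous system, 1 of 29 body wall muscle genes (3.45%) had a shared weak promoter summit: myo-3, the muscle myosin heavy chain. It had a signal value of 2.03 in replicate 1 (rank 3531), 18.4 in replicate 2 (rank 3466) and 23.1 in the pool (rank 2648). The region lay 536 bp from an IDR peak. Of 11 epidermal genes 2 had one, 18.2% (5.14 to 47.7), the highest share of any list here. They were nhr-23, a nuclear receptor of moulting, with pooled signal 16.5, and elt-6, a GATA factor, with 13.3. At elt-6 the replicate 1 value was 2.35 (rank 2671) and that of replicate 2 was 12.6 (rank 5785), and its summit at -73 bp lay in the TC-rich sequence printed above. None of 6 pharyngeal, 15 intestinal, 16 germline and 26 ciliated neuron genes had one, with upper Wilson limits of 39.03%, 20.4%, 19.4% and 12.9%. Without replicate 1 these lists counted 1, 5, 4 and 11.

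Among gene families, 5 of 93 homeodomain genes had a shared weak promoter summit, 5.38% (2.32 to 11.97). The strongest were unc-62, a MEIS-class gene, with a pooled signal value of 15.6, mec-3, which specifies touch neurons, with 11.9, pal-1, a caudal homologue, with 11.7, and vab-15, an Msx homologue, with 8.52. The unc-62 region lay 968 bp from an IDR peak and that of vab-15 373 bp from one, while the nearest were 19665 bp from the mec-3 region and 51302 bp from that of pal-1. Of 274 nuclear hormone receptor genes 5 had one (1.82%), led by nhr-21 with 16.7, nhr-23, nhr-223 with 8.25 and nhr-94 with 7.33, and IDR peaks overlapped by both lists also stood at 5.

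The ribosomal protein genes had 3 of 78 (3.85%, 1.32 to 10.7), at rpl-31, rps-7 and rpl-11.1 with pooled signal values of 17.7, 17.5 and 10.7, against 12 of 78 for the IDR peaks overlapped by both lists. Cuticle collagens had 4 of 176 (2.27%), at col-76 with 15.1, col-71 with 11.7, rol-8 with 11.6 and col-10 with 10.03, against 0 for these IDR peaks. The collagen count was 1 with 50% overlap, 0 with summits within 100 bp and 38 without replicate 1. Chemoreceptors had 7 of 1365 (0.513%, 0.249 to 1.05), led by srv-7 with 13.2, sru-8, srh-2 and srg-45, against 3. Neuropeptide genes had 1 of 140, flp-18, with 7.37, against 0. The 41 bHLH genes and 83 histone genes had none, with upper Wilson limits of 8.57% and 4.42%, against 1 and 8 for the IDR peaks. Without replicate 1 each of these lists counted 21, so the limits hold only for regions that replicate 1 also lists. The difference between these sets of peaks was not tested for any list.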

How the data were processed

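Peak lists of 2 replicates of 1 group, of their pooled alignments and of the IDR set were used as deposited, in ce11. The signal value and the −log10 q-value of each region are the authors', per the deposited descriptions set against a control; the sources used here do not name the peak caller, the aligner or thresholds. Every region of the first replicate's list has the same q-value, so regions were ranked by signal.

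Overlap was at least 1 bp, the best overlapping region being the strongest. Summits were placed in the Ensembl 115 annotation of WBcel235, by protein-coding genes, in the order promoter, exon, intron, 1000 bp 3′ of a gene, other intergenic. Odds ratios are from Mantel-Haenszel tests and p-values are adjusted by Benjamini-Hochberg (Python 3.11.15, scipy 1.17.1, statsmodels 0.14.6); tests were tested on simulated data. Near-identical genes were counted separately. Whether the peaks of a copy are its own is uncertain.

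Genes were named by a rule: those at the 15 regions with the best summed percentile ranks, the 5 strongest regions, the 5 strongest lacking replicate 1, every construct, D neuron and GABA gene with a summit within 5000 bp, and up to 4 of each other list. One of the 15 regions is not reported here. One listed gene, efn-1, was not found in the annotation. The regions, lists and motifs were chosen with earlier results of these data known. Alternatives were other overlaps, ranks, windows, flanks and strata, each replicate left out, and ce10 lists.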

Additional observations from a re-analysis of the deposited data

How the results depend on the processing

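Against IDR peaks, the calls for exons, GAGAGA and ACGCAG kept their direction and side of the threshold under every alternative run. GAGAGA and ACGCAG were picked with a high share in IDR peaks already known. Every alternative reuses these motifs and lists, so their calls gain no separate support from it. No paired analysis was possible because the 2 replicates form 1 group. Leaving out a replicate means asking for overlap with the other alone. The regions numbered 655 with overlap of 50% of each region, 478 with summits within 100 bp, 673 at ranks up to 10000, 1592 to 23300 without a replicate and 1162 in the ce10 lists. Genes with a summit numbered 299, 224 and, with the window from 2000 bp upstream to 500 bp downstream, 733, and 607 to 6957 without a replicate. Against other pooled regions, under 50% overlap, summits within 100 bp and ranks up to 10000 in turn, the odds ratio of promoters turned to 0.971, 0.919 and 0.957, uncalled, and that of windows at least 50% masked lost its call at 0.808, 0.768 and 0.814. Without a replicate these spanned 1.06 to 1.13 and 0.821 to 0.955, exons 0.777 to 0.994 and the 3′ flank 0.656 to 0.999. Exons became called with windows under 50% masked, at 0.747, an alternative chosen after seeing the data. ACGCAG turned to 1.11 with 50% overlap and 1.22 with summits within 100 bp, uncalled, and spanned 0.877 to 1.06 without a replicate. GAGAGA turned to 0.965 with summits within 100 bp, uncalled, and spanned 0.976 to 1.27 without a replicate, where 1.27, without replicate 1, was called. Against IDR peaks, the promoter call was lost at ranks up to 10000 (0.842), with the wider window (0.849) and with windows under 50% masked (0.798). Introns became called with 50% overlap (1.55), summits within 100 bp (1.55), the window from 500 bp upstream (1.34) and without a replicate (1.34 to 1.45). Other intergenic sequence became called at least 1000 bp from IDR peaks (0.779), with the 500 bp window (0.801) and without a replicate (0.758 to 0.781). The 3′ flank turned to 1.15 with the wider window, and TAATCC to 0.982 in windows of 50 bp to each side, with 1.33 to 1.72 without a replicate, of which 1.72, without replicate 1, was called. Of 6-mer pairs, those higher than in IDR peaks numbered 9, 4, 9 and 17, and those lower 23, 19 and 24, under 50% overlap, summits within 100 bp, ranks up to 10000 and, for the higher alone, windows of 50 bp; without a replicate they were 62 to 543 and 82 to 319. Against flanks, 68 higher and 41 lower remained with summits within 100 bp, 68 and 35 in windows of 50 bp, and 106 to 615 and 48 to 421 without a replicate. Against other pooled regions, 4 were higher with rank strata alone, 1 was lower with windows under 50% masked, and without a replicate 0 to 3 were higher and 1 lower each time. Of the features added later, chromosome X turned to 0.939 with 50% overlap, 0.877 with summits within 100 bp and 0.944 at least 1000 bp from IDR peaks, and piRNA genes to 1.05 at ranks up to 10000. Without a replicate, chromosome X spanned 0.963 to 1.02, piRNA genes 0.650 to 1.11, tRNA genes 0.315 (called) to 1.52 and snoRNA genes 0.810 to 1.75. At least 1000 bp from IDR peaks, tRNA genes (0.235) and pseudogenes (0.274) became called. These alternatives change which regions and how many are compared, and no other cause was tested. The unknown depth limits how weak regions can be read.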
